A study of Arabidopsis thaliana with 6 samples.

Results

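Brassinosteroid receptors, synthesis enzymes and signalling proteins were followed across the cell layers of the Arabidopsis thaliana root meristem through 10 genes, taken by locus identifier out of 33554 loci in each library. They are the receptor genes BRI1 (AT4G39400), BRL1 (AT1G55610), BRL2 (AT2G01950) and BRL3 (AT3G13380), the co-receptor gene BAK1 (AT4G33430), the kinase gene BIN2 (AT4G18710), the transcription factor genes BZR1 (AT1G75080) and BES1 (AT1G19350), and the synthesis genes DWF4 (AT3G50660) and CPD (AT5G05690). All roots came from seedlings 6 days after plating, and green fluorescent protein (GFP) reporters allowed each layer to be sorted by fluorescence before polyA+ RNA was sequenced. The 6 libraries were epidermis (ProWER:GFP), columella root cap (PET111 enhancer trap line), cortex (ProAT1G09750:GFP), endodermis line 1 and endodermis line 2 (ProSCR:GFP in both) and stele, the central vascular cylinder (ProWOL:GFP). No genotype other than the reporter and no treatment is labelled. Each layer is thus seen through the cells that a particular promoter or enhancer trap marks, and 4 of the 5 cell types have 1 library. Levels are given as FPKM, fragment counts scaled to transcript length and to the size of the library, so that genes can be compared per length.

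Brassinosteroids are plant steroid hormones that promote cell elongation and division and shape vascular differentiation. The hormone binds the receptor kinase BRI1 or its relatives BRL1 and BRL3 at the cell surface. BRI1 pairs with a SERK co-receptor such as BAK1, and a relay of cytoplasmic kinases and phosphatases switches off BIN2, a GSK3-like kinase. BIN2 otherwise phosphorylates BZR1 and BES1, which, once freed, enter the nucleus, induce growth genes and repress genes of brassinosteroid synthesis, so that the hormone limits its own production. The hormone is not carried over long distances, so it acts near the cells that make it.

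The summed FPKM of the libraries lay between 576322 and 642028, and 15999 to 17096 loci reached 1 FPKM. The number of reads is unknown. The worth of a single read, estimated from loci under 0.5 FPKM, was 0.976 to 1.60 times that of endodermis line 1, with the largest value in cortex. Marker genes were set against the labels. The lists include WER, AT1G09750, SCR and WOL, whose promoters drove the reporters, so these genes are no independent check of the sorting. WER alone was at 91.3 FPKM in epidermis. WOL was at 46.0 FPKM in stele, 30.7 in epidermis and 10.3 to 24.6 in the other libraries. CPC, on the epidermis list, was at 33.1 in epidermis and 39.6 in endodermis line 1. Summed FPKM over 5 epidermis markers was 172 in epidermis and at most 49.1 elsewhere, over 4 root cap markers 284 in columella root cap and 124 in epidermis against at most 7.35 elsewhere, over 4 endodermis markers 2555 and 318 in endodermis lines 1 and 2 against at most 49.6, and over 5 stele markers 400.2 in stele against at most 64.0. The cortex rests on 2 markers, of which AT1G09750, the reporter gene, was highest in cortex at 43.0 FPKM. AT1G62500 was at 2.39 in cortex and highest in endodermis line 2 at 6.97. The 5 xylem markers summed to 509 in columella root cap against 173 in stele and 10.4 to 89.6 in the other libraries, and 4 of the 5 were highest in columella root cap. The 4 phloem markers summed to 40.2 in endodermis line 1, 25.4 in stele, 18.4 in columella root cap and at most 8.42 elsewhere, with SUC2, a phloem sucrose transporter, at 32.2 in endodermis line 1 and 1.65 in stele. The endodermis lines stood apart from each other. CASP1, a scaffold protein of the Casparian strip, was at 2045 FPKM in line 1 and 85.2 in line 2, MYB36, its regulator, at 377 and 70.5, while SCR itself was at 59.7 and 147.

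A gene was counted as above the other cell types when its log2(FPKM + 1) exceeded each of the other cell types' libraries by at least 1 and it reached 5 FPKM in a library of that cell type. It was counted as below them when it was lower than each by at least 1 and reached 5 FPKM in at least 1 of the other libraries. Both endodermis lines had to pass the margin. No p-value attaches to this rule of size, and exact permutation over 6 libraries cannot go below p = 0.167 for a lone library or 0.0667 for 2 libraries. Among the 10 genes, stele had 2 above the others (BRL2 and CPD), where 1.55% of the 19671 measured genes were, and 0 below, where 3.21% were. Without endodermis line 2, BIN2 was also below the others in stele, where 1010 of the measured genes were. Columella root cap had 1 above (BRI1), where 5.44% of measured genes were, and 0 below, where 1.24% were. Epidermis had 2 below (BRL2 and CPD), where 1.67% were, and 0 above, where 4.46% were. Cortex had 0 above and 0 below, where 0.824% and 0.0712% of measured genes were, and endodermis 0 and 0, where 0.803% and 0.00508% were. All 10 genes were measured, meaning 1 FPKM or more in at least 1 library, but BRL1 and BRL3 reached 5 FPKM in no library and could not be counted.

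BRI1, the main brassinosteroid receptor, was present in every layer and highest in columella root cap. BRI1 reached 157 FPKM in columella root cap and 62.4 in epidermis, against 46.3 in stele, 39.1 in cortex, and 28.8 and 40.1 in endodermis lines 1 and 2 (mean 34.4 ± 7.97, SD, n = 2). The columella root cap library stood 2.52-fold above the next, which was epidermis, and the other 5 libraries lay between 28.8 and 62.4 FPKM. When FPKM were divided by size factors, the margin over epidermis was 0.94 on the log2 scale, under the 2-fold limit, against 1.32 as deposited. The whole span from lowest to highest was 5.47-fold.

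**Figure D1:**
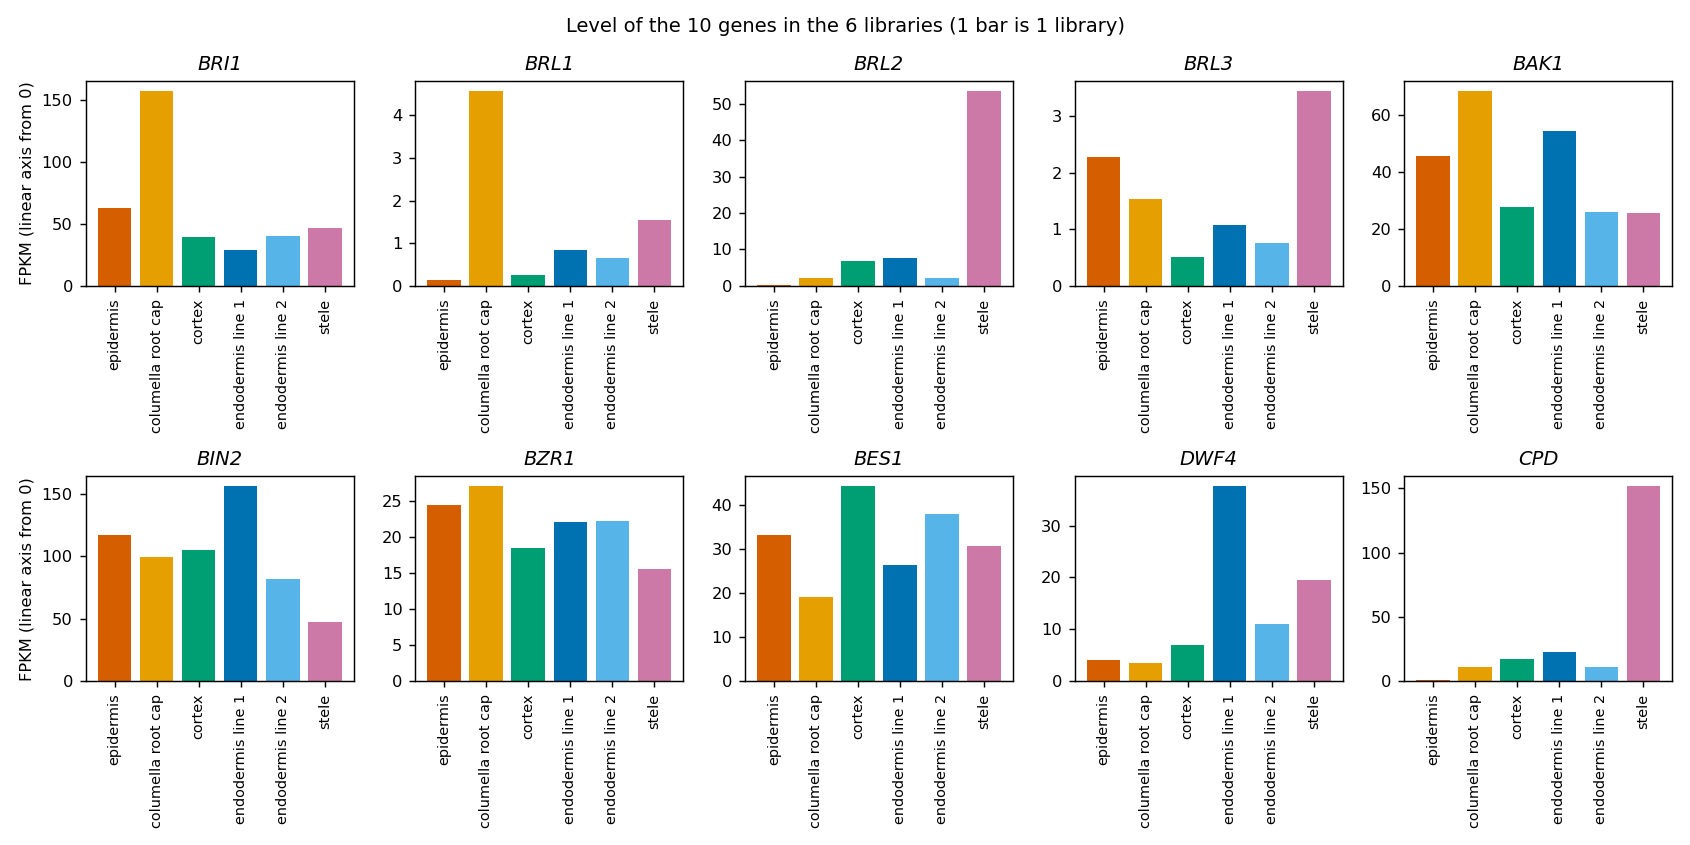
FPKM of each of the 10 genes (y axis, linear, its own scale in each panel) in the 6 libraries (x axis), where 1 bar is 1 library and no bar has an error. CPD and BRL2 stand out in stele at 152 and 53.6 FPKM, BRI1 in columella root cap at 157, while BZR1 stays between 15.6 and 27.1 in every library.

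The 3 BRI1-like genes were each highest in another place than BRI1 or far weaker. BRL2, also known as VASCULAR HIGHWAY 1, encodes a receptor-like kinase known from vascular tissue. It was at 53.6 FPKM in stele, against 7.72 and 2.06 in endodermis lines 1 and 2 (mean 4.89 ± 4.003, SD, n = 2), 6.95 in cortex, 2.20 in columella root cap and 0.181 in epidermis. Stele was thus 6.94-fold above the nearest library, and epidermis was 11.4-fold below its nearest, endodermis line 2. On the log2(FPKM + 1) scale the gap below endodermis line 2 was 1.37, inside the spread of 1.99 given below for BRL2. Levels of BRL2 spanned 296-fold, the widest range of the 10 genes next to the 294-fold of CPD. Both spans rest on epidermis values under 1 FPKM, and the number of fragments behind these is unknown.

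BRL1 and BRL3, which bind brassinosteroid and have been reported from vascular cells, were low throughout. BRL1 reached 4.58 FPKM in columella root cap, against 1.55 in stele, 0.846 and 0.652 in endodermis lines 1 and 2, 0.257 in cortex and 0.134 in epidermis. The xylem markers named above ran in the same order for their highest libraries, columella root cap before stele before endodermis line 1, and their part in the level of BRL1 was not tested. BRL3 was at 3.45 FPKM in stele, 2.27 in epidermis, 1.53 in columella root cap, 1.08 and 0.752 in endodermis lines 1 and 2, and 0.517 in cortex. How many fragments lie behind values this low is unknown. In whole sorted populations, a low level in every cell and a higher level in few cells cannot be told apart.

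The make-up of the receptor family differed by layer. BRI1 supplied 96.0% of the summed FPKM of the 4 receptor genes in epidermis and 95.0% in columella root cap. In cortex its share was 83.5%, and in endodermis lines 1 and 2 it was 74.9% and 92.0%. In stele BRI1 supplied 44.1% and BRL2 51.1%, the only library in which BRI1 was not the leading member. Among BRI1, BRL1 and BRL3, given above as binding the hormone, BRI1 led in stele, at 46.3 FPKM against 1.55 and 3.45. The summed level was 166 FPKM in columella root cap and 105 in stele, against 65.0 in epidermis, 46.8 in cortex, and 38.4 and 43.5 in endodermis lines 1 and 2.

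BAK1, the SERK-family co-receptor that also serves immune receptors, varied little. It was at 68.4 FPKM in columella root cap, 54.3 and 26 in endodermis lines 1 and 2 (mean 40.2 ± 20.01, SD, n = 2), 45.7 in epidermis, 27.7 in cortex and 25.4 in stele. The 2.69-fold span over all libraries was little more than the 2.09-fold gap between the endodermis lines. The annotated locus of BAK1 overlaps AT4G33420, which was at 20.6 FPKM in endodermis line 1 and at most 1.81 elsewhere. How fragments of overlapping loci were assigned is unknown. BRI1 exceeded BAK1 2.30-fold in columella root cap and 1.37-fold to 1.82-fold in epidermis, cortex, endodermis line 2 and stele, while in endodermis line 1 the ratio of BRI1 to BAK1 was 0.530.

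Of the 4 other SERK genes, 2 met the rule of size. SERK1, a relative that can act as BRI1 co-receptor, was above the other cell types in stele, at 32.5 FPKM against at most 12.6. SERK5 was above them in columella root cap, at 9.79 against at most 2.33. SERK2 lay between 1.93 and 8.90 FPKM and SERK4 between 1.65 and 4.73. BAK1 made up 36.0% of the summed SERK level in stele and 56.8% to 85.3% in the other libraries. SERK genes are similar in sequence, so the division of fragments among them is uncertain. BKI1, an inhibitor that holds BRI1 inactive until hormone binds, was above the other cell types in endodermis, at 7.62 and 10.1 FPKM in lines 1 and 2 (mean 8.88 ± 1.78, SD, n = 2) against at most 1.92. BIR1, a receptor-like kinase that binds BAK1, lay between 7.32 and 17.3 FPKM with no layer apart.

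**Figure D2:**
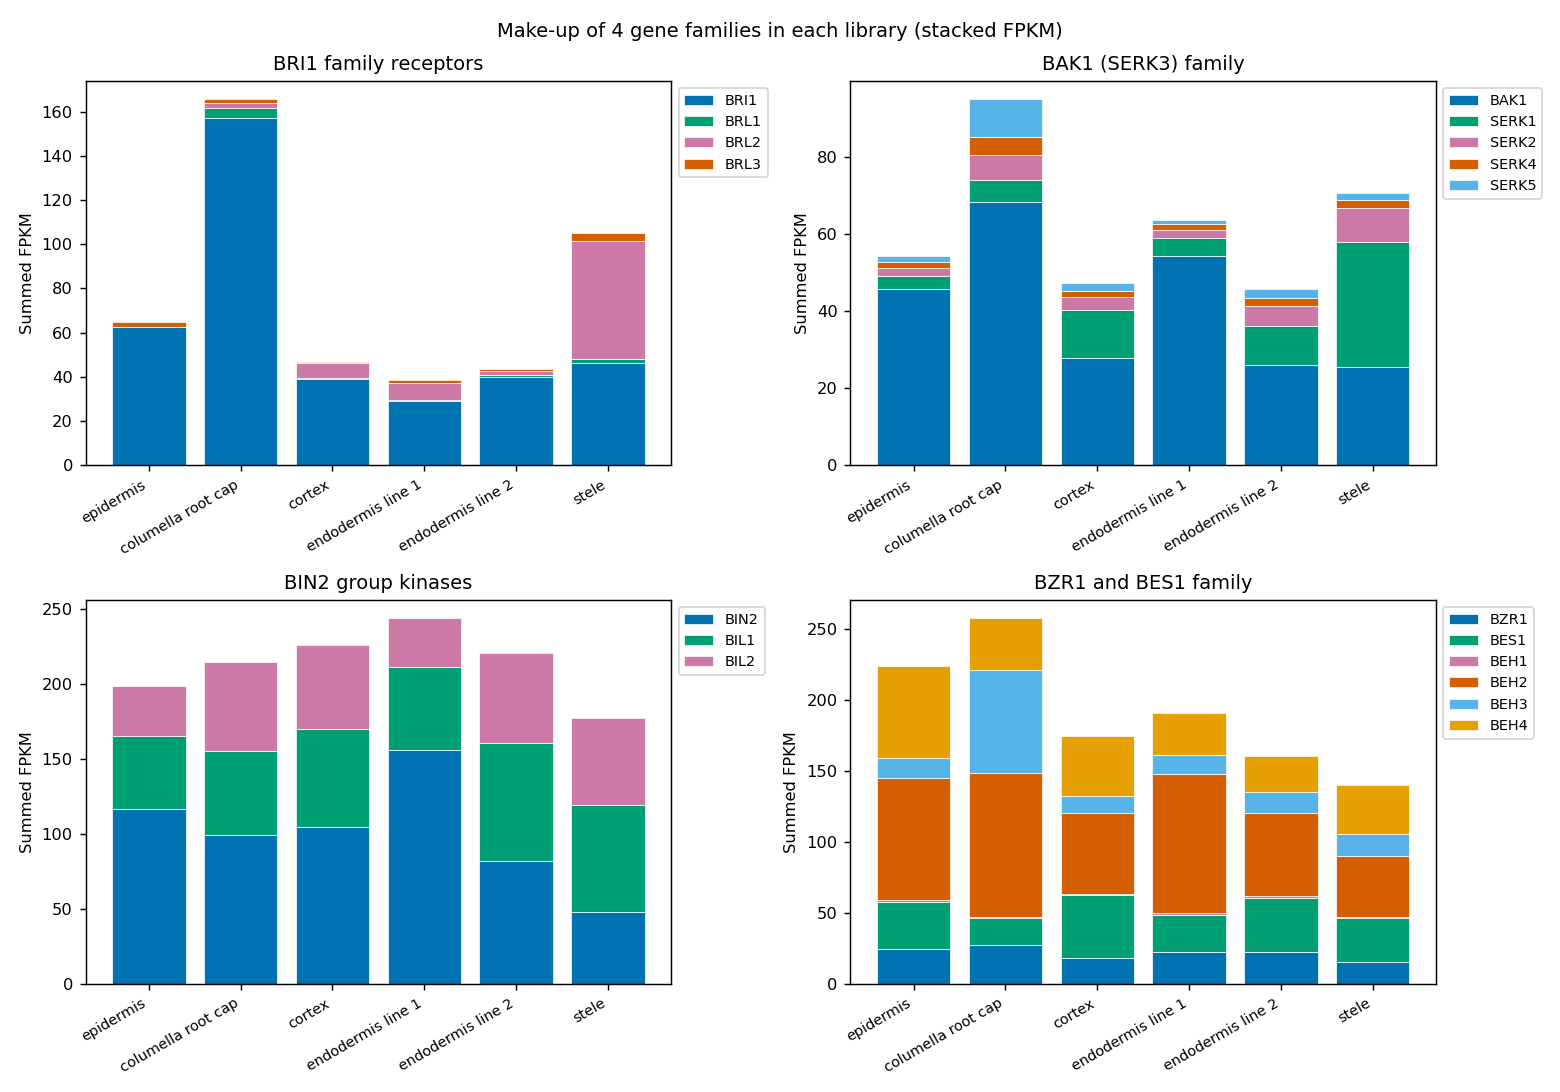
Summed FPKM (y axis, linear) of 4 gene families in the 6 libraries (x axis), with colours for the family members and no error bars. In the BRI1 family, BRI1 supplies nearly all of the summed FPKM in epidermis and columella root cap. BRL2, not among the genes given above as binding the hormone, supplies 51.1% in stele. BEH3 is prominent in columella root cap at 72.7 FPKM.

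Between receptor and BIN2, the relay genes were highest in differing layers. Of the 9 relay genes listed, BSK5, a kinase of the family phosphorylated by BRI1, was above the other cell types in stele, at 38.2 FPKM against at most 17.6. BSK1 had 49.4 and 31.4 FPKM in endodermis lines 1 and 2, against at most 20.6 elsewhere, and BSK3 at 103 in cortex against 20.1 to 54.1 elsewhere. Neither met the 2-fold rule as set above. BSK3 met it in cortex with size factors, with the mean of the endodermis lines and without line 2. Its log2 margins there were 1.01, 1.25 and 1.25. BSK1 met it in endodermis without line 2, by 1.22. The phosphatase genes BSL1, BSL2 and BSL3 lay between 7.73 and 28.7 FPKM. CDG1, a kinase gene, and BSU1, a phosphatase gene, were at 0.106 FPKM or less in all 6 libraries.

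BIN2, the kinase that restrains the pathway, was lowest in the stele library. Stele had 47.7 FPKM, against 81.6 in endodermis line 2, 99.3 in columella root cap, 105 in cortex, 117 in epidermis and 156 in endodermis line 1. The endodermis mean was 119 ± 52.8 (SD, n = 2), and stele lay 0.76 on the log2 scale below the nearest library, inside the 2-fold rule. Without endodermis line 2 that margin was 1.04 and BIN2 met the rule. BIL1 and BIL2, the closest relatives of BIN2, spanned less: BIL1 lay between 48.3 and 79.3 FPKM and BIL2 between 32.5 and 59.7. BIN2 made up 26.9% of the summed level of the 3 kinases in stele, against 37.0% to 64.0% in the other libraries. OPS, a phloem membrane protein known to hold BIN2 away from the nucleus, was at 8.68 FPKM in stele and 9.07 in columella root cap, against 2.06 to 5.11 elsewhere. The level of BIN2 was 1.03 times that of BRI1 in stele and 0.631 times in columella root cap, against 1.87 in epidermis, 2.68 in cortex, and 5.43 and 2.04 in endodermis lines 1 and 2.

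BZR1 and BES1, the factors that BIN2 restrains, had the most even levels. BZR1 was at 27.1 FPKM in columella root cap, 24.5 in epidermis, 22.1 and 22.2 in endodermis lines 1 and 2 (mean 22.2 ± 0.0755, SD, n = 2), 18.4 in cortex and 15.6 in stele, a span of 1.74-fold. BES1 was at 44.4 FPKM in cortex, 38.1 and 26.5 in endodermis lines 2 and 1 (mean 32.3 ± 8.17, SD, n = 2), 33.2 in epidermis, 30.8 in stele and 19.2 in columella root cap, a span of 2.32-fold. BES1 thus exceeded BZR1 in 5 libraries, 1.20-fold to 2.41-fold, and in columella root cap the ratio of BES1 to BZR1 was 0.706. The 2 genes are similar in sequence, so part of a fragment pool may be shared between them, and the locus of BES1 overlaps RRA3, which was at 27.4 FPKM in columella root cap and 38.1 to 87.1 elsewhere, with cortex highest as for BES1. The part of RRA3 in the level of BES1 was not tested.

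BEH2, a relative of BZR1 and BES1, had the highest level of the family in all 6 libraries, at 102 FPKM in columella root cap, 98.1 and 58.2 in endodermis lines 1 and 2, 85.8 in epidermis, 57.0 in cortex and 42.8 in stele. BEH3 was above the other cell types in columella root cap, at 72.7 FPKM against 12.01 to 15.9. It supplied 28.2% of the family there and 6.37% to 11.3% elsewhere. BEH4 was highest in epidermis at 64.9 FPKM, within 2-fold of cortex at 42.3, and BEH1 stayed at 1.60 or less. The bHLH partner BIM1 was lowest in columella root cap, at 25.9 FPKM against 48.8 to 63.6, within 2-fold of epidermis and cortex.

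Synthesis genes had their highest summed level in stele and endodermis. CPD, a cytochrome P450 (CYP90A1) without which plants are severe dwarfs, was at 152 FPKM in stele, against 22.99 and 10.9 in endodermis lines 1 and 2 (mean 16.9 ± 8.54, SD, n = 2), 16.9 in cortex, 10.8 in columella root cap and 0.516 in epidermis. Stele was 6.60-fold above the nearest library and epidermis 20.9-fold below its nearest, columella root cap. On the log2(FPKM + 1) scale that second gap was 2.96. The locus of CPD overlaps MOS7, which was at 17.8 FPKM in stele and 4.15 to 13.3 in the others, with epidermis lowest as for CPD. The part of MOS7 in the level of CPD was not tested. DWF4 (CYP90B1), a hydroxylase often called rate-limiting, had 37.6 and 10.9 FPKM in endodermis lines 1 and 2 (mean 24.3 ± 18.9, SD, n = 2) and 19.5 in stele, against 6.95 in cortex, 4.04 in epidermis and 3.52 in columella root cap. Stele lay between the 2 endodermis lines, which differed 3.45-fold, and both outer libraries were lowest.

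The 5 other synthesis genes were read beside these. BR6OX2 (CYP85A2), the oxidase that makes the most active hormone, brassinolide, was above the other cell types in endodermis, at 75.3 and 55.5 FPKM in lines 1 and 2 (mean 65.4 ± 13.99, SD, n = 2) against 14.8 in stele, 8.32 in cortex, 1.54 in columella root cap and 1.16 in epidermis. BR6OX1, its relative, was at 20.5 and 21.2 in endodermis lines 1 and 2 and 10.9 in stele, against 3.64 or less elsewhere. CYP90D1 had 11.3 FPKM in endodermis line 1 but 0.455 in line 2, and at most 2.29 in the others. The other 2 genes did not share this order. DET2, the steroid reductase, was at 19.9 FPKM in cortex and 19.9 and 16.1 in endodermis lines 1 and 2. It was at 9.60 in columella root cap, 7.55 in stele and 5.18 in epidermis. ROT3 (CYP90C1) was at 28.1 in stele, 22.7 in columella root cap and 16.0 in cortex. It was at 11.7 and 4.30 in endodermis lines 1 and 2 and 11.4 in epidermis. Over the 7 genes, summed FPKM was 235 in stele and 199 and 119 in endodermis lines 1 and 2, against 72.3 in cortex, 49.7 in columella root cap and 23.1 in epidermis. CPD supplied 64.6% of the sum in stele and BR6OX2 37.8% and 46.5% in the endodermis lines, so stele and endodermis differed in which gene of the 7 was most abundant.

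Enzymes upstream, which make the sterol precursors, followed another pattern. All 5 sterol genes listed (DWF1, DWF5, DWF7, FK and HYD1) were lowest in columella root cap, and all 5 had their 2 highest values in cortex and endodermis line 2. DWF1, a sterol reductase, had 112 FPKM in columella root cap, against 149 to 918 elsewhere with cortex highest. DWF7, a sterol desaturase, met the rule for columella root cap, at 15.8 FPKM against at least 38.9. Endodermis line 1 was far from line 2 for DWF1 (149 against 674 FPKM) and FK (23.8 against 88.5).

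Genes that inactivate brassinosteroids were highest in epidermis and columella root cap. SOB7 (CYP72C1) was at 176 FPKM in epidermis and 81.3 in columella root cap, against 8.84 and 1.08 in endodermis lines 1 and 2, 7.97 in cortex and 0.462 in stele. BEN1, a reductase-like protein that lowers brassinosteroid levels, was at 229 in epidermis and 253 in columella root cap, against 20.8 and 3.59 in endodermis lines 1 and 2, 10.7 in cortex and 0.842 in stele. BAS1 (CYP734A1), a hydroxylase, was at 26.2 in epidermis and 21.0 in columella root cap, against 4.78 in stele, 2.01 and 1.25 in endodermis lines 1 and 2, and 1.25 in cortex. BIA1, an acyltransferase, was at 9.67 in epidermis and 2.74 in columella root cap, against 0.897 or less in the 4 inner libraries. In all 4 of these genes both outer libraries stood above every inner one. By the rule for lone cell types, SOB7 and BIA1 were above the others in epidermis, and BEN1 was below them in stele. The glucosyltransferase genes UGT73C5 and UGT73C6 stayed at 0.890 FPKM or less.

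**Figure D3:**
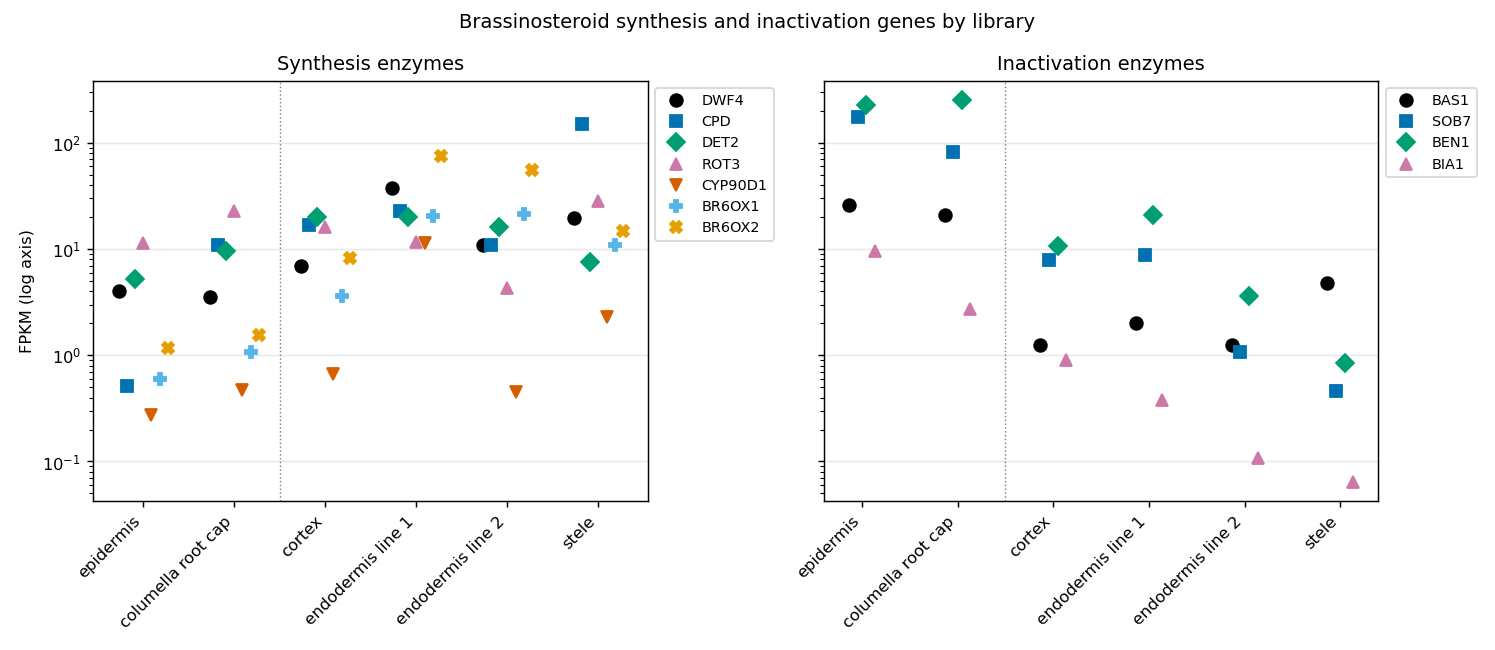
FPKM (y axis, log scale) of 7 synthesis genes (left) and 4 inactivation genes (right) in the 6 libraries (x axis), where 1 point is 1 library, points are shifted sideways for legibility, and the dotted line parts epidermis and columella root cap from the inner layers. Inactivation genes lie higher to the left of that line, from 2.74 to 253 FPKM against 20.8 or less, and BR6OX1 and BR6OX2 lie lower there.

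This contrast of outer with inner layers was drawn up after the values were seen and is a description. With epidermis and columella root cap together set against the other 4 libraries, BAS1, SOB7 and BEN1 were at least 2-fold above every inner library, where 2.83% of measured genes were, and BR6OX1 and BR6OX2 were at least 2-fold below, where 0.813% were. The nearest values differed 9.19-fold for SOB7, 11.0-fold for BEN1 and 4.39-fold for BAS1, and 3.39-fold and 5.39-fold for BR6OX1 and BR6OX2. None of the 10 genes met it, although DWF4 and CPD were lower in both outer libraries than in any inner library. For CPD the nearest values were 10.8 in columella root cap and 10.9 in endodermis line 2. BRI1 and BZR1 were higher in both outer libraries than in any inner library. Without endodermis line 2, BRL2 met the 2-fold contrast, with a log2 margin of 1.31 below the inner libraries. In that setting 183 of the 19671 measured genes were below. Summed FPKM of 6 inactivation genes was 442 in epidermis and 358 in columella root cap, against 32.9 and 6.58 in endodermis lines 1 and 2, 21.0 in cortex and 6.39 in stele. That sum was 19.1 and 7.20 times the summed synthesis level in epidermis and columella root cap, against 0.291 in cortex, 0.165 and 0.0550 in endodermis lines 1 and 2, and 0.0272 in stele. BEN1 and SOB7 supplied 51.9% and 39.9% of the inactivation sum in epidermis, and 70.6% and 22.7% in columella root cap. In stele BAS1 supplied 74.8% of it. Root cap markers were also high in the epidermis library (124 FPKM summed, with BRN2 at 34.4 in epidermis and 31.6 in columella root cap), and their part in these levels was not tested.

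Response genes did not follow a common layer. IAA19, induced by auxin and brassinosteroid, was at 106 FPKM in epidermis, 63.1 and 5.30 in endodermis lines 1 and 2, 37.5 in stele, 7.24 in cortex and 5.25 in columella root cap. TCH4, a wall-modifying enzyme induced by touch and brassinosteroid, was at 247 and 61.1 in endodermis lines 1 and 2 and 30.8 to 105 elsewhere. EXO was highest in endodermis line 2 and cortex at 48.0 and 47.9, and IBH1, a factor that brassinosteroid represses, was at 66.9 in columella root cap, 58.1 in endodermis line 1 and 22.2 in epidermis against 4.16 or less. Of the 10 response genes 6 were measured and none met the rule in any cell type with all libraries in, against the shares of measured genes given above. Without endodermis line 1, IAA19 was above the others in epidermis by a log2 margin of 1.48 and IBH1 in columella root cap by 1.55. Without line 2, TCH4 was above them in endodermis by 1.22 and below them in cortex by 1.20. Over all 19671 measured genes, 1217 were above in epidermis and 1306 in columella root cap without line 1. The matching numbers without line 2 were 802 above in endodermis and 70 below in cortex. BEE1, BEE3, SAUR15 and PRE1 stayed under 1 FPKM in every library, and PRE1 was listed at 0 in all 6.

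**Figure D4:**
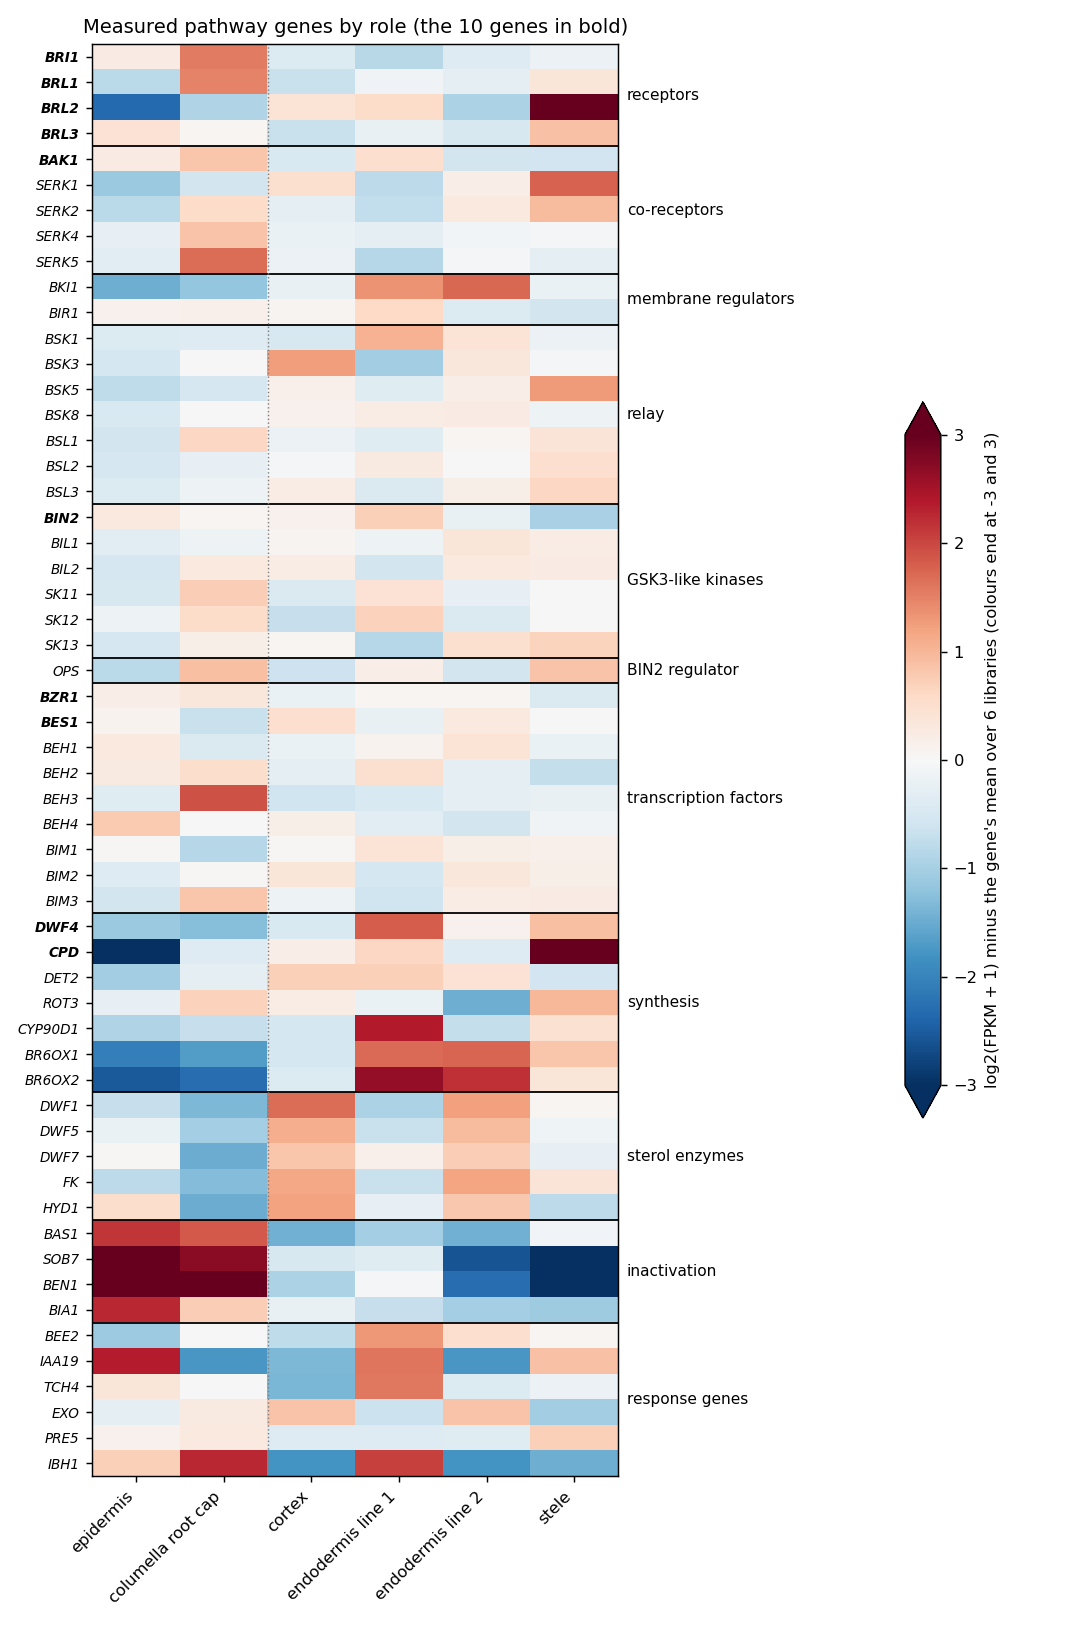
Colour gives log2(FPKM + 1) minus the mean of the gene over 6 libraries, for 56 measured and named pathway genes (rows, grouped by role) in the 6 libraries (columns). Red for inactivation genes sits in epidermis and columella root cap, red for BR6OX1 and BR6OX2 in both endodermis lines, and sterol genes are red in cortex and endodermis line 2.

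Across the 57 measured genes of the 66 in the pathway list, stele had 4 above and 1 below, columella root cap 3 and 1, epidermis 2 and 2, endodermis 2 and 0, and cortex 0 and 0. The share above was 7.02% in stele, against 1.55% of all measured genes, and 3.51% in endodermis, against 0.803%. It was 5.26% in columella root cap, against 5.44%, and 3.51% in epidermis, against 4.46%, both near the background. The share below was 3.51% in epidermis, against 1.67%, 1.75% in columella root cap, against 1.24%, and 1.75% in stele, against 3.21%. The median log2 difference of the pathway list from the other cell types was -0.51 in epidermis, 0.07 in columella root cap, -0.18 in cortex, 0.05 in endodermis and 0.12 in stele, against -0.39, -0.05, -0.01, -0.03 and 0.06 over all measured genes. Several counts turned on 1 library. Without columella root cap, epidermis had 4 above and 5 below, where 1381 and 612 of the 19671 measured genes were. Without epidermis, columella root cap had 6 above and 3 below, where 1595 and 515 were. Without endodermis line 2, endodermis had 5 above (802 of all genes), cortex 3 above and 1 below (308 and 70), and stele 3 below (1010). Without endodermis line 1, endodermis had 1 below (52 of all genes). With all libraries in, 158 of all genes were above in endodermis and 631 below in stele.

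The pair of endodermis libraries gave the only view of spread. The 2 lines differed by at least 1 on the log2(FPKM + 1) scale at 35.1% of measured genes, and the median absolute difference was 0.74. Among the 10 genes, line 1 exceeded line 2 by 1.70 for DWF4, 1.51 for BRL2, 1.03 for BAK1, 1.01 for CPD and 0.93 for BIN2, while the remaining 5 differed by at most 0.51. IBH1, IAA19 and CYP90D1 were further apart, by 3.85, 3.35 and 3.08, and stood higher in line 1, the line in which CASP1 and MYB36 were also higher. The part of those 2 genes' difference in the gaps of the pathway genes was not tested.

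**Figure D5:**
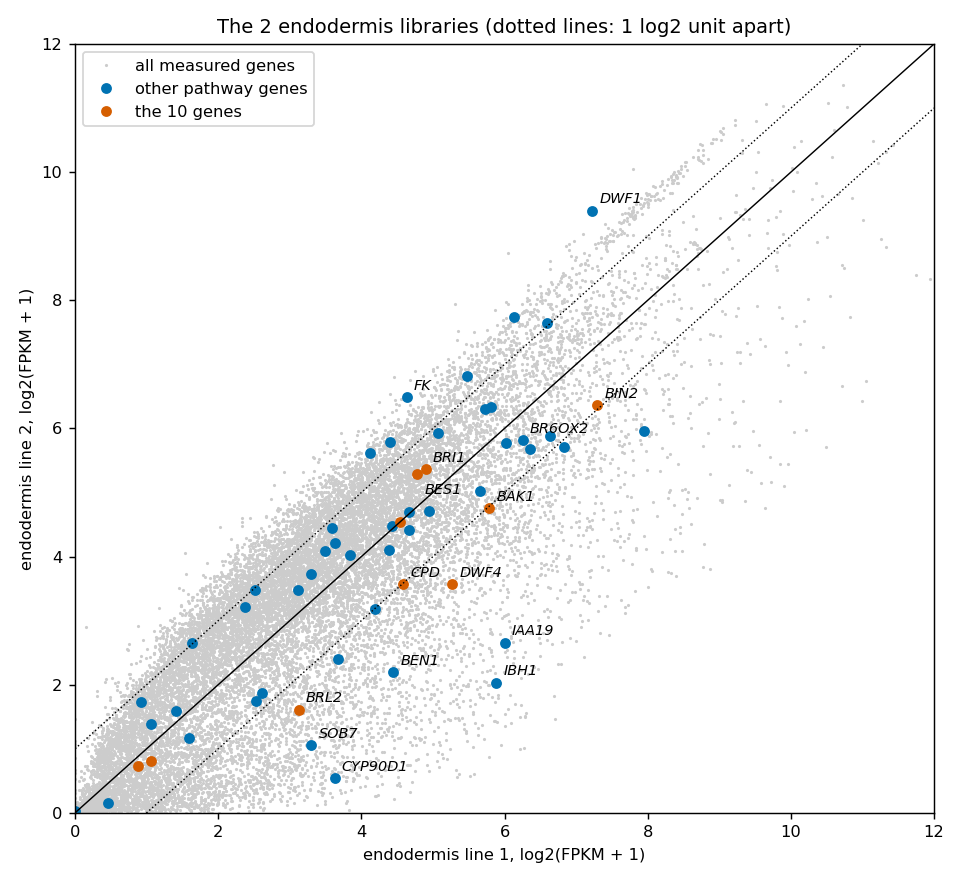
Each point is a gene, with log2(FPKM + 1) in endodermis line 1 (x axis) and line 2 (y axis), all measured genes in grey, pathway genes in blue and the 10 genes in orange. DWF4, BRL2, BAK1 and CPD lie below the lower dotted line, which marks line 1 ahead by 1 log2 unit, and BZR1 lies on the diagonal.

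Levels were then ordered within each gene, and neighbours in the order were compared with the 90th percentile of the gap between the endodermis lines over the 1000 measured genes nearest in level, which was 1.595 to 1.99 on the log2 scale. For CPD, stele was ahead of endodermis line 1 by 2.67 and columella root cap ahead of epidermis by 2.96, both beyond this spread of 1.595. For BRL2, stele was ahead of endodermis line 1 by 2.65, beyond its spread of 1.99. No other pair of neighbours differed beyond the spread in any of the 10 genes, including columella root cap and epidermis for BRI1 (1.32 against 1.75).

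As a secondary test, limma set every cell type against the average of the remaining 4 over all 19671 measured genes, with Benjamini-Hochberg adjustment. Its 1 residual degree of freedom comes from the endodermis pair, so lone libraries are assumed to vary like that pair. The prior degrees of freedom were infinite, so the SE of a gene came from a trend over all genes and not from its own pair. BZR1 and BRI1 in epidermis both had an SE of 0.90, with line differences of 0.0066 and 0.46. In stele, CPD was higher by 4.16 ± 0.94 on the log2 scale (SE, adjusted p = 0.00123) and BRL2 by 3.95 ± 1.04 (adjusted p = 0.00886), where 0.961% of genes were called higher and 2.01% lower. In epidermis, CPD was lower, with a log2 difference of -4.16 ± 0.94 (adjusted p = 0.000371), where 0.473% were called lower and 6.19% higher, and BRL2, at -2.96 ± 1.04, was not called (adjusted p = 0.0631). In columella root cap, BRL1 was higher by 1.81 ± 0.54 (adjusted p = 0.0219), where 4.71% were called higher and 0.336% lower, and BRI1, at 1.81 ± 0.90, was not called (adjusted p = 0.361). Cortex and endodermis had 0 calls among the 10 genes in limma, where 0.508% and 1.91% of genes were called higher and 0.00508% and 0.249% lower, and 0 of the 10 had an unadjusted p under 0.05 in either. DWF4 in endodermis differed by 1.46 ± 0.79 (adjusted p = 0.670).

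The limma calls were lost under some settings. With size factors, and with no filter on low values, limma called none of the 10 genes in any cell type. Over the 7 alternatives, adjusted p lay between 0.000395 and 0.294 for CPD in stele, between 0.00462 and 0.510 for BRL2 in stele and between 2.59e-05 and 0.245 for CPD in epidermis, and over the 6 that held BRL1, between 0.0303 and 0.417. In the main run, limma called 5 of the 57 measured pathway genes in epidermis and 3 in columella root cap. It called 2 in endodermis, 4 in stele and 0 in cortex. Over all measured genes, 6.19% were called higher and 0.473% lower in epidermis, and 4.71% and 0.336% in columella root cap. The same shares were 1.91% and 0.249% in endodermis, 0.961% and 2.01% in stele, and 0.508% and 0.00508% in cortex. Higher calls in epidermis and columella root cap were near these shares. Outside the 10 genes limma called SOB7, BEN1, BIA1 and IAA19 higher in epidermis, with log2 differences of 4.41, 3.91, 2.61 and 2.92. It called BKI1 and BR6OX2 higher in endodermis by 2.31 and 3.62, SOB7 and BEN1 higher in columella root cap by 3.02 and 4.09, and both lower in stele by differences of -4.25 and -4.79. Of the 7 alternatives, limma called BKI1 in 2, SOB7 in epidermis in 5 and each of the others in 4, and the highest adjusted p lay between 0.249 (BR6OX2) and 0.826 (IAA19).

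Likeness between the 10 genes was described by Pearson's r on the log2 scale over the 6 libraries, which share depth and handling across genes. BRL2 and CPD were the most alike (r = 0.97), followed by BAK1 and BZR1 (r = 0.79) and BRI1 and BRL1 (r = 0.71). The most opposed were BRL2 and BZR1 (r = -0.86) and BRL1 and BES1 (r = -0.85). Other genes also reached high values over these 6 points, and no chance level was computed. Of 16086 other genes at 5 FPKM or more somewhere, 122 reached r = 0.95 with BRI1 and 58 with BRL2. Of 16087, 139 reached it with BRL1 and 5 with BRL3. The 3 genes most like BRI1 were AT4G22250, ENODL16 (AT3G01070) and AT2G29070, with r of 0.998, 0.99 and 0.99. For BRL1 they were TOPP4 (AT2G39840), AT5G50230 and TTA2 (AT3G63500), all at r of 0.99 or more. For BRL2 they were AT2G28410, TCP15 (AT1G69690) and AT1G68810, with r of 0.99, and each was highest in stele. For BRL3 they were CRLK1 (AT5G54590), AT1G72880 and AT1G28070, with r of 0.97, 0.97 and 0.96.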

How the data were processed

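RNA from sorted root cells was sequenced in 6 libraries of 5 cell types, and libraries were grouped by the labels. The deposited values are FPKM per locus made by the authors, 1 file per library. The submitters' processing notes name TopHat 1.3.1, Bowtie 0.12.7, Cufflinks 2.0.2 and build TAIR10, without roles or settings. For annotation, strandedness, filters and shared reads, nothing is given in the sources used here. No counting interval can be set on FPKM. The p-values measure only the spread between the endodermis lines, fitted over all genes, which may be technical or biological.

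Locus identifiers were named through a RefSeq table of assembly TAIR10.1 (32807 of 33554 matched), and no coordinates or sequences from that build are printed. By that annotation, 6 of the 10 genes overlap another locus. The list entries AT1G27190 and AT4G12810 have no name there and are counted only.

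Values were compared as log2(FPKM + 1), which understates differences of low genes. Measured genes had at least 1 FPKM in a library. The rule of size used a log2 margin of 1 and 5 FPKM, limma (version 3.58.1, R 4.3.3, eBayes with trend) called at an adjusted p of 0.05 and a log2 difference of 1, and its prior degrees of freedom were infinite. Python 3.11.15 was used otherwise. Named genes were the 10, every other list gene that met the rule of size, and the 3 most like each receptor. Other list genes named were picked with their values in view. The 10 genes, the lists and the tests were chosen with earlier results of these data known. The computations were tested on simulated data. Alternatives covered pseudocount, minimum, margin, scaling, endodermis lines, left-out libraries and limma settings.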

Additional observations from a re-analysis of the deposited data

How the results depend on the processing

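By the rule of size, the 10 genes gave 2 calls in epidermis in every setting run except the 3-fold margin (1), and 2 in stele except with a 1.5-fold margin, with the mean of the endodermis lines and without line 2 (3 each, BIN2 being the third). BRI1 in columella root cap fell out with size factors and with a 3-fold margin (0 genes), and the count was 2 with a minimum of 1 FPKM and with TPM, as BRL1 joined. Cortex and endodermis had 0 in every setting run. No gene that met the rule of size reversed. Among margins under the rule's limit, BIN2 in epidermis was ahead of every other library without endodermis line 1 (0.16 against -0.42), DWF4 in endodermis without line 2 (0.92 against -0.78) and with the mean of the lines (0.30), and BZR1 in columella root cap was not ahead with size factors (-0.24 against 0.14) or quantile normalization (-0.0024). Limma calls were the least stable. Columella root cap had 0 with a pseudocount of 0.1, no filter, a minimum of 5 FPKM, size factors or no trend. Epidermis had 2 with a pseudocount of 0.1, a minimum of 5 FPKM or TPM, and 0 with no filter or size factors. Stele had 0 with no filter, size factors or no trend. The prior degrees of freedom were 5.93 with size factors, 9.15 with no trend and 1.22 with no filter, and infinite otherwise. The cause of the lost calls was not tested.

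For the pathway list, a 1.5-fold margin gave 4 above in epidermis, 4 above in endodermis, 3 below in columella root cap, 2 below in stele, 1 above and 1 below in cortex, and 4 below for both outer libraries together. A 3-fold margin gave 0 above and 1 below in epidermis, 0 below in columella root cap, 1 above in endodermis, 2 above and 0 below in stele, and 1 below for both outer libraries. With TPM columella root cap had 5 above, with quantile normalization epidermis had 1 above and cortex 1 below, with size factors cortex had 1 above, and with a pseudocount of 0.1 stele had 2 below. With the mean of the endodermis lines cortex had 2 above and 1 below and stele 3 below. Without the epidermis library columella root cap had 6 above and 3 below, and without columella root cap epidermis had 4 and 5. Leaving out an endodermis line gave 2 to 5 genes above in endodermis and 0 to 1 below, 0 to 3 above and 0 to 1 below in cortex, and 1 to 3 below in stele. Outer and inner layers were set against each other only after the data were seen.

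The median over all measured genes shifted by 0.29 in epidermis and -0.12 in stele with size factors, and by -0.12 in columella root cap with quantile normalization. Over the settings, genes above the others numbered 622 to 1381 in epidermis (878 as reported), 553 to 1794 in columella root cap (1071), 71 to 360 in cortex (162), 94 to 802 in endodermis (158) and 143 to 1221 in stele (305). Those below numbered 83 to 1024 (328), 69 to 792 (243), 1 to 85 (14), 0 to 52 (1) and 235 to 1252 (631) in the same order, and for both outer libraries together 330 to 1209 were above (556) and 44 to 635 below (160). With size factors, 85.9% of epidermis calls and 71.3% of columella root cap calls over all genes were above, against 72.8% and 81.5% as deposited. No paired analysis was possible because only endodermis has 2 libraries and the other cell types share no second replicate number with it. Without an endodermis line limma has no residual degree of freedom, so it was not run. Depth per library is not known. The low levels of BRL1 and BRL3, and of BRL2 and CPD in epidermis, thus carry an error that cannot be given.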
